A study of Mus musculus with 13 samples.

Results

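The glutathione, thioredoxin and antioxidant genes are the enzymes that make and use the thiol glutathione, the thioredoxin and peroxiredoxin system, the superoxide dismutases and catalase, and the transcription factor NRF2 with its inhibitor KEAP1. They were matched by gene symbol, and 57 of the 20054 genes in the deposited table matched. RNA of whole mouse esophagus had been sequenced in 7 dblGATA and 6 wild-type (WT) libraries. In dblGATA mice a GATA site in the control region of the Gata1 gene has been deleted, without which eosinophils do not develop, and the deletion is carried by all cells of the animal. Both genotypes had received 4-nitroquinoline 1-oxide (4-NQO), a carcinogen given to induce esophageal tumors, for 8 weeks and then propylene glycol, its vehicle, for 8 weeks, and the labels name this stage pre-cancer. Strain, age and sex are not given in the labels used here. Nor do they state whether the libraries stand for separate animals, and p-values therefore measure the spread between libraries, part of which may be technical.

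Glutathione is built in a pair of steps, by glutamate-cysteine ligase and then by glutathione synthetase, and the supply of cysteine limits it. Glutathione peroxidases, peroxiredoxins and catalase remove peroxides, glutathione transferases attach glutathione to reactive chemicals, and glutathione reductase and thioredoxin reductases return the oxidised thiols to their reduced form with NADPH. NRF2, encoded by Nfe2l2, is held at low levels by KEAP1 until oxidants or electrophiles modify KEAP1, and it then binds antioxidant response elements near many of these genes. 4-NQO is itself metabolised to DNA-binding and oxidant-forming products in the epithelium it reaches.

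Of the 57 genes, 56 passed the filter on low counts, and Gstt4, a theta-class transferase, did not, with at most 8 counts in any library. In dblGATA esophagus 5 of the 56 rose and 8 fell (edgeR quasi-likelihood test, adjusted p under 0.05). That is 23.2% of the tested members, where 13.5% of all 16599 tested genes passed, 7.1% higher and 6.39% lower. The genes that rose were Gclm, Gss, Gclc, Cat and Nfe2l2, and those that fell were Gpx4, Gpx8, Sod1, Gstk1, Txnrd2, Prdx3, Mgst3 and Gstm7. The median log2 fold change of the 56 was 0.04, against -0.00 over all tested genes. In 2 of the members that rose, Gclc and Gclm, and in 2 that fell, Gpx4 and Sod1, the dblGATA and WT libraries did not overlap, while 2.66% of all tested genes were separated in this way, 1.95% in the higher direction and 0.711% in the lower. An unadjusted p under 0.05 was reached by 28 members and by 32.4% of all tested genes. Both an edgeR adjusted p under 0.05 and a change of at least 1.5-fold were met by Gclm and Gpx4, and by 1.68% of all tested genes.

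Promoter sequence was taken from RefSeq windows on the mouse build GRCm38.p6, from 250 bases before to 50 bases after each gene's start, and 49 of the 57 members had one. The windows were searched on both strands for TGACNNNGC, the core of the antioxidant response element, where N is any base. It was present in 10 of the 49 members' windows (20.4%) and in 14% of the 27025 genes with a window. Of the called members with a window, 2 of 4 that rose, Gclm and Nfe2l2, and 2 of 8 that fell, Sod1 and Gstm7, held it, and so did 6 of 36 that were not called. The 250 bases before the start are shown for Gclm, Nfe2l2 and Sod1, because these are changed members with a match and lie on both sides of the comparison, and the capitals mark the match on the strand shown, which is the gene's. They lie at chr3:122245307-122245556 (plus strand) for Gclm, chr2:75704664-75704913 (minus strand) for Nfe2l2 and chr16:90220512-90220761 (plus strand) for Sod1.
Gclm: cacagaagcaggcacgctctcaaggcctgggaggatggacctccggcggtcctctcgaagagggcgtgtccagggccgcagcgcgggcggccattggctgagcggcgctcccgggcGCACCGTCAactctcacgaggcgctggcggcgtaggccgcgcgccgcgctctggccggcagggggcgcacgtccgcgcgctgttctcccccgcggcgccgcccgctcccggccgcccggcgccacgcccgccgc
Nfe2l2: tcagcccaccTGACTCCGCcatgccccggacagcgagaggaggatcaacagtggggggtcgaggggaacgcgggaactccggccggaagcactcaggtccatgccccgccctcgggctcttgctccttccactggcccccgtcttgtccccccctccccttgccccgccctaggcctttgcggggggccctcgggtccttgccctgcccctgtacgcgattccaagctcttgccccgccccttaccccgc
Sod1: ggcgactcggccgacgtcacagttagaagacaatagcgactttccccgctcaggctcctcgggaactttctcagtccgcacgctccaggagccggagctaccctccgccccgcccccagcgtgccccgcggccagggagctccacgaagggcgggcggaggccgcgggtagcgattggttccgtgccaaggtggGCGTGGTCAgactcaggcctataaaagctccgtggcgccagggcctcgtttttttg
The match begins 134 bases before the start of Gclm, 240 before that of Nfe2l2 and 56 before that of Sod1, counted along the gene's strand. In Nfe2l2 the motif reads along the gene's strand, and in Gclm and Sod1 it reads on the opposite strand. A match is a run of letters and not a shown binding site, and Gclc has no window in the table.

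Before the results, some libraries stood apart. Totals ran from 66.3 to 98.2 per library, in units of 1e+06 counts, and WT 4 and WT 6 held 10.1% and 16.9% of theirs in the ribosomal RNA gene Rn18s, the others no more than 3.24%. Markers of squamous epithelium were abundant in all libraries, with a sum of 36850 to 74384 CPM (counts per 1e+06 counts, scaled by TMM) in dblGATA and 28744 to 45832 CPM in WT. Eosinophil markers summed to 1.05 to 4.78 CPM in dblGATA and 2.12 to 20.6 CPM in WT. The 20.6 CPM were in WT 3, and the other WT libraries held at most 6.88 CPM. Of 5 tested eosinophil markers 1 fell, and all 5 log2 fold changes were negative, with a median of -1.23. All 8 pan-epithelial markers rose in dblGATA, and their sum was 5928 to 8777 CPM in dblGATA and 4701 to 5360 CPM in WT, without overlap. Of 9 basal epithelium markers 7 rose, with a median log2 fold change of 0.61 and sums of 6471 to 9776 CPM in dblGATA and 4769 to 6891 CPM in WT. Of the 12 squamous markers 2 rose, with a median log2 fold change of 0.43. Over all tested genes 7.1% rose and 6.39% fell. Of 16 skeletal muscle markers 5 fell, with sums of 20572 to 43644 CPM in dblGATA and 27831 to 52824 CPM in WT. Of 10 adipocyte and 8 smooth muscle markers 1 each fell and the log2 fold changes of all were negative, with sums of 405 to 1106 CPM (adipocyte) and 3413 to 7430 CPM (smooth muscle) in dblGATA and 632 to 1627 CPM and 3883 to 8160 CPM in WT. In whole tissue, fewer cells of a type and less RNA per cell cannot be told apart. WT 3 held 6569 CPM of airway and gland markers, and every other library held at most 32.8 CPM. dblGATA 5 held 331 CPM of hepatic markers, where the other libraries held at most 64.0, and WT 3 and WT 4 held 1152.5 and 1156 CPM of erythroid markers, where the others held at most 470. Without dblGATA 5, WT 3 or WT 4, 5, 11 and 5 members passed in that order, against 13 with all libraries. Of all genes 535, 1867 and 396 passed in these fits, against 2239. Xist, expressed from an inactive X chromosome, and Ddx3y, a Y-linked gene, were both abundant in dblGATA 6 (563 and 24.7 CPM before scaling) and in WT 1 to WT 4 (Xist 43.7 to 206 CPM, Ddx3y 50.3 to 103 CPM). dblGATA 7 held 738 CPM of Xist and 4.56 CPM of Ddx3y, and WT 6 held 672 CPM of Xist and 0 counts of Ddx3y. In the remaining libraries Xist was at most 10.5 CPM and Ddx3y at 60.7 to 83.7 CPM. The labels do not tell whether a library stands for 1 animal or several, and sex could not be entered from them as a term. With the level of Xist as a covariate, 3 members passed as higher and 7 as lower, and 793 and 832 of all 16599 tested genes.

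The genes for glutathione synthesis rose together in dblGATA. Of the 4 members that supply and build glutathione, 3 rose and none fell (75% called, against 13.5% of all tested genes). Their median log2 fold change was 0.54. Gclm (ENSMUSG00000028124.16), the modifier subunit of glutamate-cysteine ligase, was at 184 CPM in the lowest, 206 in the median and 227 in the highest dblGATA library, against 110, 138 and 162 CPM in WT. Every dblGATA library lay above every WT library, and the gene was 52.1% higher (log2 fold change 0.60 ± 0.09, SE, adjusted p = 0.0137 by edgeR). Gclc (ENSMUSG00000032350.10), the catalytic subunit of the same enzyme, was at 154, 176 and 245 CPM in dblGATA and at 78.4, 133 and 145 CPM in WT, in the same order of lowest, median and highest. Its groups did not overlap either, the lowest WT library being WT 6, and its log2 fold change was 0.58 ± 0.15 (SE, adjusted p = 0.0269 by edgeR). Gss (ENSMUSG00000027610.18), glutathione synthetase, which adds glycine in the last step, was at 82.6, 102 and 106 CPM in dblGATA and at 60.0, 73.0 and 86.8 CPM in WT. In 6 of 7 dblGATA libraries it exceeded all WT libraries, and the log2 fold change was 0.41 ± 0.09 (SE, adjusted p = 0.0195 by edgeR). Slc7a11, the cystine carrier of the cystine-glutamate exchanger, was at 132, 174 and 236 CPM in dblGATA and at 81.4, 127 and 182 CPM in WT, where 3 of 7 dblGATA libraries lay above all WT libraries. It did not pass (log2 fold change 0.49 ± 0.17, SE, adjusted p = 0.0689 by edgeR). Gclm and Gss passed whichever library was left out, with adjusted p up to 0.0434 and 0.0488. Gclc lost the call without dblGATA 3, dblGATA 5, WT 4 or WT 6, with adjusted p up to 0.0569 and a log2 fold change of 0.48 at the lowest.

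**Figure D1:**
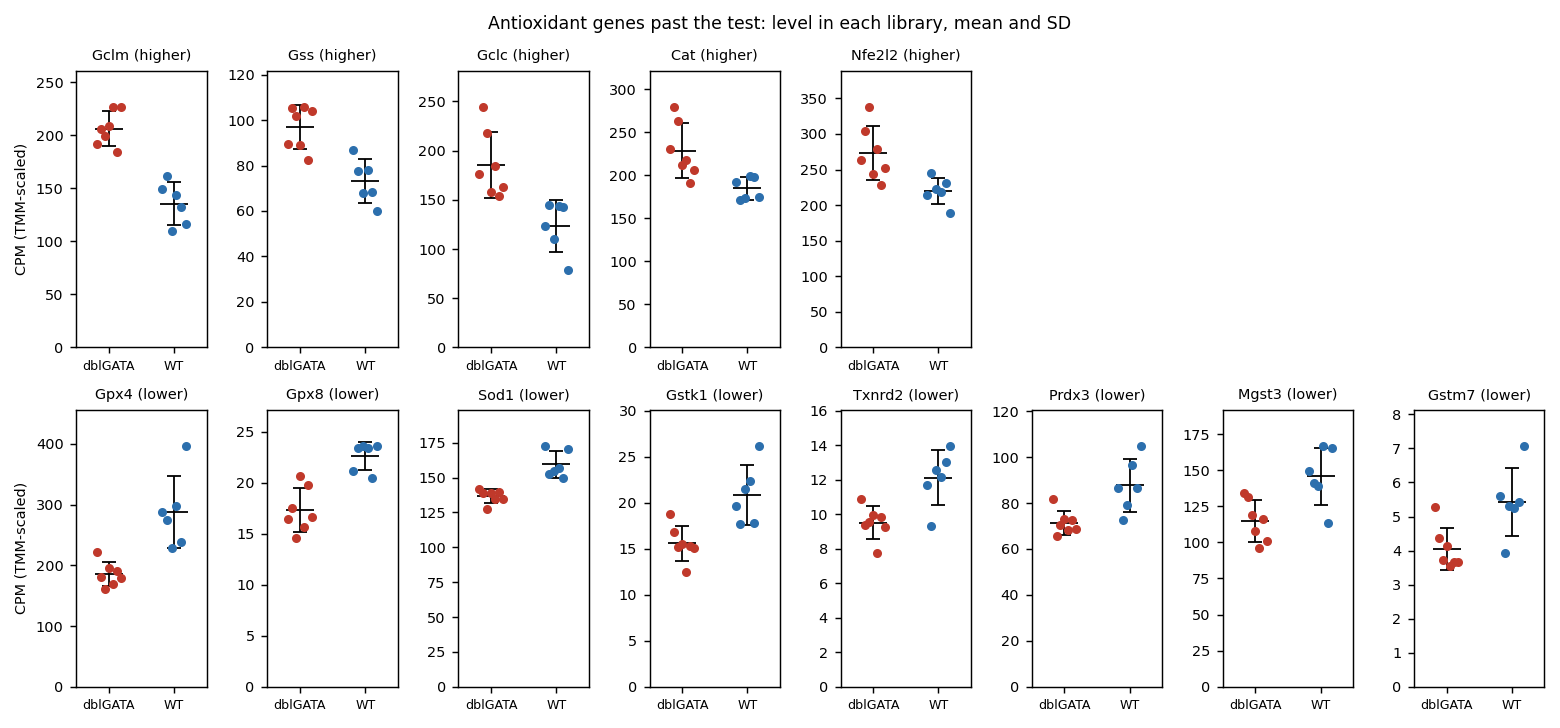
Level of each of the 13 changed members in every library, in CPM after TMM scaling on axes that start at 0, with dblGATA libraries (n = 7) left of WT libraries (n = 6), and a bar for the mean and SD. The 5 genes that rose stand in the upper row and the 8 that fell in the lower row, and the groups do not overlap for Gclm, Gclc, Gpx4 and Sod1.

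Gsr, glutathione reductase, which recycles oxidised glutathione, did not pass. It was at 31.9, 34.9 and 37.6 CPM in the lowest, median and highest dblGATA library, against 28.8, 33.9 and 39.8 CPM in WT. The dblGATA libraries lay within the range of the WT libraries, and the log2 fold change was 0.01 ± 0.07 (SE, adjusted p = 0.922 by edgeR).

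Of the 6 glutathione peroxidase members, 2 fell and none rose (33.3% called, against 13.5% of all tested genes), with a median log2 fold change of -0.36. Gpx4 (ENSMUSG00000075706.12), the selenoprotein that reduces lipid hydroperoxides in membranes and restrains ferroptosis, was at 161, 181 and 222 CPM in dblGATA and at 229, 282 and 396 CPM in WT. All dblGATA libraries lay below all WT libraries, and WT 6 was the highest. Its level was 35.5% lower in dblGATA, a log2 fold change of -0.63 ± 0.12 (SE, adjusted p = 0.0159 by edgeR). Gpx8, a peroxidase of the endoplasmic reticulum, was at 14.6, 16.6 and 20.6 CPM in dblGATA and at 20.5, 23.4 and 23.6 CPM in WT. The groups overlapped by 1 dblGATA library, and the log2 fold change was -0.38 ± 0.08 (SE, adjusted p = 0.0179 by edgeR). Both passed in all 13 fits that left out 1 library, with adjusted p up to 0.0479 for Gpx4 and 0.048 for Gpx8. Gpx2, the glutathione peroxidase of the digestive tract epithelium and an NRF2 target, was at 493, 558 and 606 CPM in dblGATA and at 351, 461 and 553 CPM in WT. In 4 of 7 dblGATA libraries it lay above all WT libraries, and it did not pass (log2 fold change 0.28 ± 0.11, SE, adjusted p = 0.0922 by edgeR). Gpx3, the secreted form, and Gpx7, a relative of Gpx8, had log2 fold changes of -0.45 ± 0.18 and -0.33 ± 0.13, and the common cytosolic Gpx1 had 0.11 ± 0.11 (SE, adjusted p = 0.0952, 0.104 and 0.519 in that order by edgeR).

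The superoxide dismutases and catalase split by enzyme. Sod1, the copper-zinc enzyme of the cytosol, was at 127, 139 and 142 CPM in dblGATA and at 150, 156 and 173 CPM in WT. The groups did not overlap, although the difference was small, 14.4% lower in dblGATA (log2 fold change -0.22 ± 0.05, SE, adjusted p = 0.0213 by edgeR). Sod2, the manganese enzyme of mitochondria, was at 109, 119 and 131 CPM in dblGATA and at 117, 144 and 147 CPM in WT, with 3 dblGATA libraries below all WT libraries. It missed the threshold by little (log2 fold change -0.21 ± 0.07, SE, adjusted p = 0.0502 by edgeR), and Sod3, the extracellular enzyme, had -0.14 ± 0.13 (adjusted p = 0.497). Cat, catalase, which splits hydrogen peroxide in peroxisomes, was at 191, 218 and 280 CPM in dblGATA and at 171, 183 and 199 CPM in WT. It lay above all WT libraries in 6 of 7 dblGATA libraries, with a log2 fold change of 0.31 ± 0.09 (SE, adjusted p = 0.0371 by edgeR). Sod1 lost the call without WT 4 or WT 6 (adjusted p up to 0.0533). Cat lost it without any one of dblGATA 2, 3, 5 and 7 and WT 1, 3, 4 and 6 (adjusted p up to 0.0925).

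Of the 7 peroxiredoxin and sulfiredoxin members, 1 fell and none rose, and their median log2 fold change was 0.02. This share of 14.3% called is close to the 13.5% of all tested genes. Prdx3, the mitochondrial peroxiredoxin, was at 65.6, 70.3 and 81.6 CPM in dblGATA and at 72.5, 86.5 and 105 CPM in WT. It was below all WT libraries in 4 of 7 dblGATA libraries (log2 fold change -0.30 ± 0.08, SE, adjusted p = 0.032 by edgeR). Prdx1, the cytosolic peroxiredoxin that NRF2 controls, was at 467, 493 and 523 CPM in dblGATA, a narrow span inside the WT values of 390, 476 and 748 CPM (log2 fold change -0.03 ± 0.13, SE, adjusted p = 0.897 by edgeR). Prdx6, which uses glutathione, was at 184, 211 and 269 CPM in dblGATA and at 168, 195 and 218 CPM in WT (log2 fold change 0.17 ± 0.10, SE, adjusted p = 0.229 by edgeR). Srxn1, sulfiredoxin, which repairs overoxidised peroxiredoxins and is an NRF2 target, was at 102, 112 and 138 CPM in dblGATA and at 99.4, 101 and 125 CPM in WT (log2 fold change 0.12 ± 0.09, SE, adjusted p = 0.346 by edgeR). The groups of these last 3 genes overlapped. Prdx2, Prdx4 and Prdx5 had log2 fold changes from -0.17 to 0.04, none called.

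Among the thioredoxins and their reductases, 1 of 5 fell and none rose (20% called, against 13.5% of all tested genes). Txnrd2, the mitochondrial reductase, was at 7.75, 9.55 and 10.9 CPM in dblGATA and at 9.31, 12.3 and 13.9 CPM in WT. The ranges overlapped, with 2 dblGATA libraries below all WT libraries, and the log2 fold change was -0.35 ± 0.09 (SE, adjusted p = 0.0316 by edgeR). Txnrd1, the cytosolic reductase and an NRF2 target, was at 89.4, 98.4 and 107 CPM in dblGATA and at 88.8, 92.7 and 105 CPM in WT (log2 fold change 0.08 ± 0.06, SE, adjusted p = 0.362 by edgeR). Txn1, cytosolic thioredoxin, was at 434, 493 and 651 CPM in dblGATA and at 318, 465 and 545 CPM in WT (log2 fold change 0.23 ± 0.15, SE, adjusted p = 0.306 by edgeR). Both genes' groups overlapped. Txn2, the mitochondrial thioredoxin, had a log2 fold change of -0.14 ± 0.07, and Txnrd3, a reductase abundant in testis, had 0.03 ± 0.09 (SE, adjusted p = 0.181 and 0.854 by edgeR). The transcripts of the mitochondrial proteins Prdx3 and Txnrd2 were thus called lower, and those of their cytosolic counterparts Prdx1 and Txnrd1 were not called. Of the dismutases, cytosolic Sod1 was called lower and mitochondrial Sod2 was not called (adjusted p = 0.0502 by edgeR). Their log2 fold changes were nearly the same, at -0.22 and -0.21. Mitochondrial Txn2 was not called either, and a difference between compartments was not tested. Prdx3 lost its call without any one of dblGATA 2, 3, 5 and 7 and WT 1, 4 and 6 (adjusted p up to 0.0747), and Txnrd2 without any one of dblGATA 3, 5 and 7 and WT 1, 4, 5 and 6 (up to 0.0804).

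**Figure D2:**
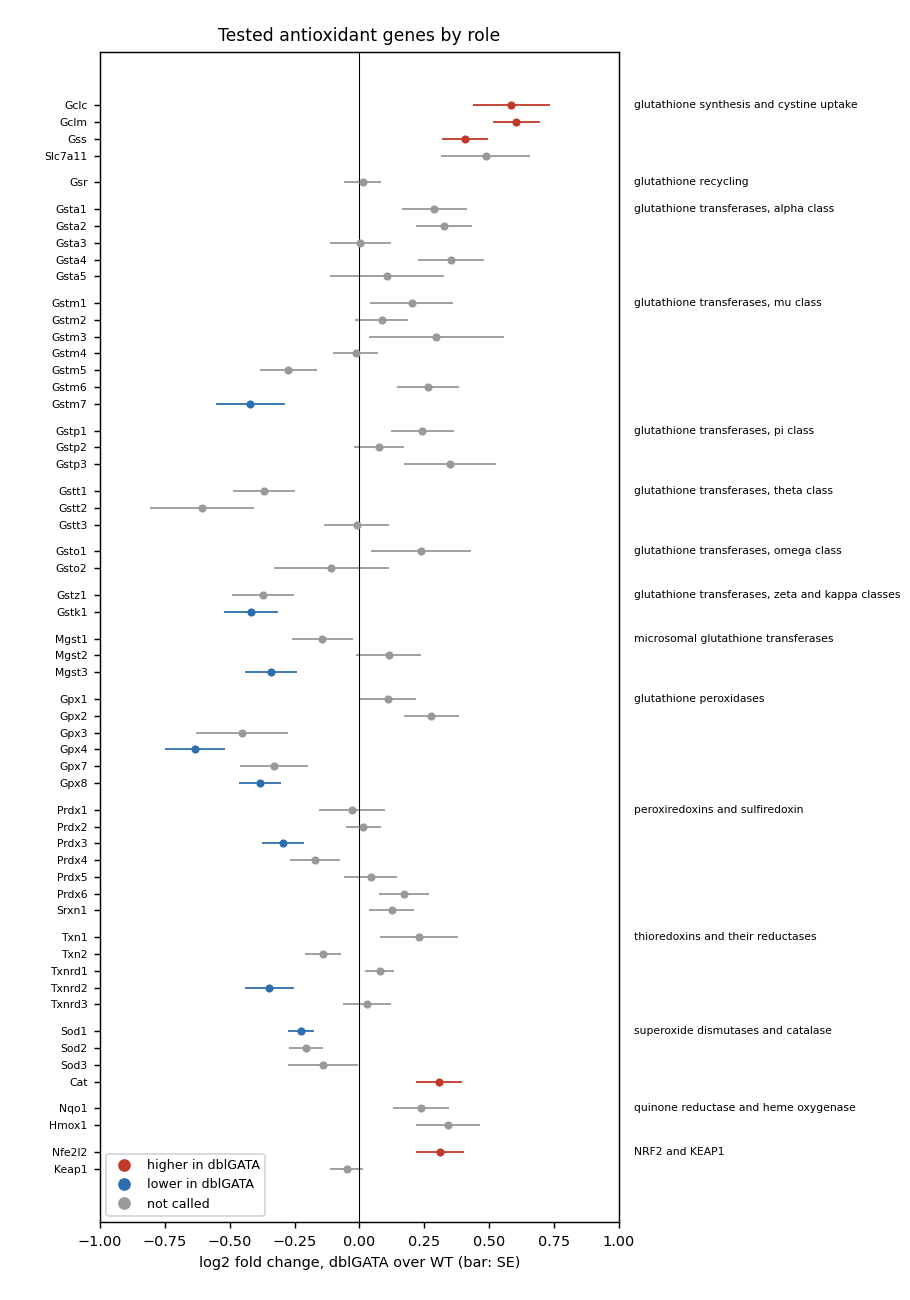
Log2 fold change of dblGATA over WT for the 56 tested members, grouped by role, with bars for the SE. Points of called genes are red (higher in dblGATA) or blue (lower), and the glutathione synthesis genes at the top lie to the right of 0 while 4 of 6 glutathione peroxidases lie to the left.

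The glutathione transferases form the largest group, and no cytosolic transferase of the alpha, mu, pi or omega class rose. The alpha-class genes, which also reduce lipid peroxides, had log2 fold changes from 0.00 to 0.35, all 5 of them positive and none called. Gsta4, the enzyme for lipid peroxidation aldehydes, was the most abundant member per length in both groups, with means of 1093 CPM per kilobase of transcript in dblGATA and 856 in WT. Its level ran from 836 to 1347 CPM in dblGATA and from 637 to 987 CPM in WT, with 4 of 7 dblGATA libraries above all WT libraries, and its log2 fold change was 0.35 ± 0.13 (SE, adjusted p = 0.0765 by edgeR). Gsta2 had 0.33 ± 0.11 and Gsta1 0.29 ± 0.13 (SE, adjusted p = 0.0561 and 0.13 by edgeR). The pi-class genes Gstp1, Gstp2 and Gstp3 had log2 fold changes of 0.24, 0.08 and 0.35, with none called. Copies within the alpha, mu and pi classes are nearly alike in sequence, and the way reads were shared among them is not stated, so single values in these classes are uncertain.

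Of the 7 mu-class genes, Gstm7 fell and none rose (14.3% called, close to the 13.5% of all tested genes). Its level was low, at 3.54, 3.73 and 5.29 CPM in dblGATA and at 3.93, 5.37 and 7.07 CPM in WT, and 4 of 7 dblGATA libraries lay below all WT libraries. The log2 fold change was -0.42 ± 0.13 (SE, adjusted p = 0.0497 by edgeR), and the call held in 2 of 13 fits without 1 library, those without dblGATA 1 or WT 2, with adjusted p up to 0.121 in the others. Gstm1, the most abundant mu-class gene per length, had a log2 fold change of 0.20 ± 0.16 (SE, adjusted p = 0.398 by edgeR). The omega-class Gsto1, which reduces dehydroascorbate and arsenic compounds, ran from 785 to 1318 CPM in dblGATA and from 584 to 1496 CPM in WT, the highest being WT 3, with a log2 fold change of 0.24 ± 0.19 (adjusted p = 0.415).

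Of 2 zeta and kappa transferases 1 fell, Gstk1, and of 3 microsomal ones 1 fell, Mgst3. None of the 3 tested theta-class genes passed, and 6.39% of all tested genes were called lower. Gstk1, the kappa-class enzyme of mitochondria and peroxisomes, was at 12.5, 15.3 and 18.7 CPM in dblGATA and at 17.6, 20.6 and 26.2 CPM in WT. In 6 of 7 dblGATA libraries it lay below all WT libraries, with a log2 fold change of -0.42 ± 0.10 (SE, adjusted p = 0.025 by edgeR). Mgst3, a membrane transferase with peroxidase activity, was at 96.3, 116 and 134 CPM in dblGATA and at 113, 145 and 167 CPM in WT. The ranges overlapped, and the log2 fold change was -0.34 ± 0.10 (SE, adjusted p = 0.0385 by edgeR). Gstz1, which isomerises maleylacetoacetate in tyrosine breakdown, and the theta-class Gstt1 and Gstt2 had log2 fold changes of -0.37 ± 0.12, -0.37 ± 0.12 and -0.61 ± 0.20 and just missed the threshold (SE, adjusted p = 0.0537, 0.0549 and 0.0584 by edgeR). The microsomal Mgst1 and Mgst2 and the theta-class Gstt3 lay nearer to 0, at -0.14 ± 0.12, 0.11 ± 0.13 and -0.01 ± 0.12 on the log2 scale (SE, adjusted p = 0.42, 0.564 and 0.964 by edgeR). Gstk1 lost the call without any one of dblGATA 3, 5 and 7 and WT 4 and 6 (adjusted p up to 0.0645), and Mgst3 without any one of dblGATA 3, 4, 5, 6 and 7 and WT 1, 4 and 6 (up to 0.0962).

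Nfe2l2 rose and Keap1 did not pass. The NRF2 transcript was at 229, 264 and 338 CPM in dblGATA and at 188, 221 and 245 CPM in WT, with 5 of 7 dblGATA libraries above all WT libraries and a log2 fold change of 0.31 ± 0.09 (SE, adjusted p = 0.0406 by edgeR). Its call was lost without any one of dblGATA 2, 3, 5 and 7 and WT 1, 3, 4 and 6 (adjusted p up to 0.1). Keap1 was at 72.5, 76.1 and 80.0 CPM in dblGATA, within the WT range of 65.4, 79.6 and 90.2 CPM (log2 fold change -0.05 ± 0.06, SE, adjusted p = 0.628 by edgeR). Nqo1, the quinone reductase often used as a readout of NRF2, was at 169, 183 and 268 CPM in dblGATA and at 152, 168 and 200 CPM in WT, with overlapping groups (log2 fold change 0.24 ± 0.11, SE, adjusted p = 0.149 by edgeR). Hmox1, heme oxygenase, was at 69.4, 82.2 and 104 CPM in dblGATA and at 54.7, 60.0 and 93.1 CPM in WT. WT 4 held the highest WT value, and the gene did not pass with it (log2 fold change 0.34 ± 0.12, SE, adjusted p = 0.0773 by edgeR) but did without WT 4 (0.47, adjusted p = 0.0479).

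Other genes of the pathways were counted in lists by function, in which 18 of 143 tested genes rose and 6 fell (16.8% called, against 13.5% of all genes). Among genes for cysteine uptake and glutathione salvage 2 of 19 rose and none fell (10.5% called, below the share of all genes). Slc3a2, the heavy chain that partners Slc7a11, was at 81.6, 108 and 119 CPM in dblGATA and at 71.1, 79.5 and 87.6 CPM in WT (log2 fold change 0.39 ± 0.09, SE, adjusted p = 0.0197 by edgeR), and Slc1a4, a carrier of neutral amino acids, had 0.53 ± 0.11 (adjusted p = 0.0172) with no overlap of the groups. Among genes that supply NADPH 6 of 19 rose and 1 fell (36.8% called). Idh1, the cytosolic isocitrate dehydrogenase, was at 130, 147 and 169 CPM in dblGATA and at 111, 115 and 127 CPM in WT, without overlap (log2 fold change 0.34 ± 0.06, SE, adjusted p = 0.0162 by edgeR). The folate enzyme Aldh1l2 and the pentose phosphate enzymes Pgd and Tkt also rose (log2 fold changes 0.53 ± 0.11, 0.37 ± 0.09 and 0.30 ± 0.08, SE, adjusted p = 0.0174, 0.0276 and 0.0293 by edgeR). G6pdx, which starts that pathway, rose by 0.44 ± 0.13 (adjusted p = 0.037), and Me3, the mitochondrial malic enzyme, fell by 0.64 ± 0.15 (adjusted p = 0.0238).

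Among 24 further NRF2 targets 5 rose and none fell (20.8% called). The log2 fold changes of Abcc4, Abcc3 and Abcc1, which export conjugates and rose, were 0.45 ± 0.09, 0.39 ± 0.10 and 0.25 ± 0.07, and that of Akr1b8, an aldo-keto reductase that rose, was 0.47 ± 0.11 (SE, adjusted p from 0.0179 to 0.029 by edgeR). The median of that list was 0.16, against -0.00 over all genes. Of 15 regulators of NRF2, none rose and 2 fell, and this share of 13.3% is close to the 13.5% of all tested genes. Nfe2l1, a relative of NRF2 that controls proteasome genes, fell by 0.39 ± 0.08, and Rbx1, a ubiquitin ligase subunit that works with KEAP1, by 0.20 ± 0.06 (SE, adjusted p = 0.0179 and 0.0489 by edgeR). With the trend with transcript length removed, Rbx1 was at -0.02 ± 0.04 (SE, adjusted p = 0.722), and its call held in 3 of 13 fits without 1 library. Of 38 glutaredoxins, thioredoxin-like proteins and related selenoproteins, none rose and 3 fell, namely Selenow, Glrx5 and Msrb2, by 0.44, 0.24 and 0.35 on the log2 scale, and this share of 7.89% lies below that of all genes. Txnip, which binds thioredoxin, did not pass (log2 fold change -0.18 ± 0.13, SE, adjusted p = 0.324 by edgeR). Of the 24 called genes of the lists, Idh1, Aldh1l2, Slc1a4, Nfe2l1 and Abcc4 passed in all 13 fits that left out 1 library. The other 19 lost it without WT 6, 18 of them without dblGATA 7 and 17 without WT 4, with adjusted p up to 0.0533 for Slc3a2 and 0.119 for the NADPH-supply gene Mthfd1. With the length trend removed 16 of the 24 were still called.

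The authors' deposited table of DESeq2 results put 9 members higher and 11 lower in dblGATA at an adjusted p under 0.05, where 18.2% of all genes passed in that table, 9.57% higher and 8.63% lower. These 20 hold all 13 members called here, in the same directions. The members that only the authors' deposited table called were Slc7a11, Gsta2, Gsta4 and Gpx2 (higher) and Gstt2, Gpx7 and Gstt1 (lower). In the authors' deposited table of pathways, made with Ingenuity Pathway Analysis, Glutathione Biosynthesis had a −log10 p of 2.71 with all 3 of its genes, GCLC, GCLM and GSS, listed. Glutathione Redox Reactions I had a −log10 p of 3.51 and a z score of -2.333, NRF2-mediated Oxidative Stress Response 2.59 and 2.236, and Thioredoxin Pathway a −log10 p of 0.217. The deposited values rest on the same 13 libraries and are no independent check.

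The folds of the changed members depended on whether markers of tissue make-up entered the fit. With the mean log2 level of the pan-epithelial markers as a covariate, no gene passed, and Gclm was the 1 member with an unadjusted p under 0.05 (log2 fold change 0.47 ± 0.15, SE), where 588 of all genes (3.54%) were under it. Gpx4 was then at -0.31 ± 0.17, Gclc at 0.33 ± 0.24, Gss at 0.14 ± 0.12 and Nfe2l2 at 0.06 ± 0.13 on the log2 scale. With the skeletal muscle markers as a covariate no gene passed, and 10 members and 1394 genes (8.4%) had an unadjusted p under 0.05. Cat was at 0.41 ± 0.12 and Gclm at 0.43 ± 0.10 there, while Txnrd2, Prdx3 and Gstm7 were at -0.13, -0.11 and -0.10. Nor did any gene pass without WT 4 and WT 6, where 22 members and 3542 genes (20.9%) had an unadjusted p under 0.05. In that fit the median fold of the 13 was 86.2% of its log2 size with all libraries. Without WT 3 and WT 5 instead, 10 members and 2218 genes passed, and why the fits differ was not tested. The 13 kept their sign in each of these fits. Since the summed pan-epithelial markers did not overlap between the genotypes, a difference in epithelium and a difference between genotypes cannot be told apart in these libraries.

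**Figure D3:**
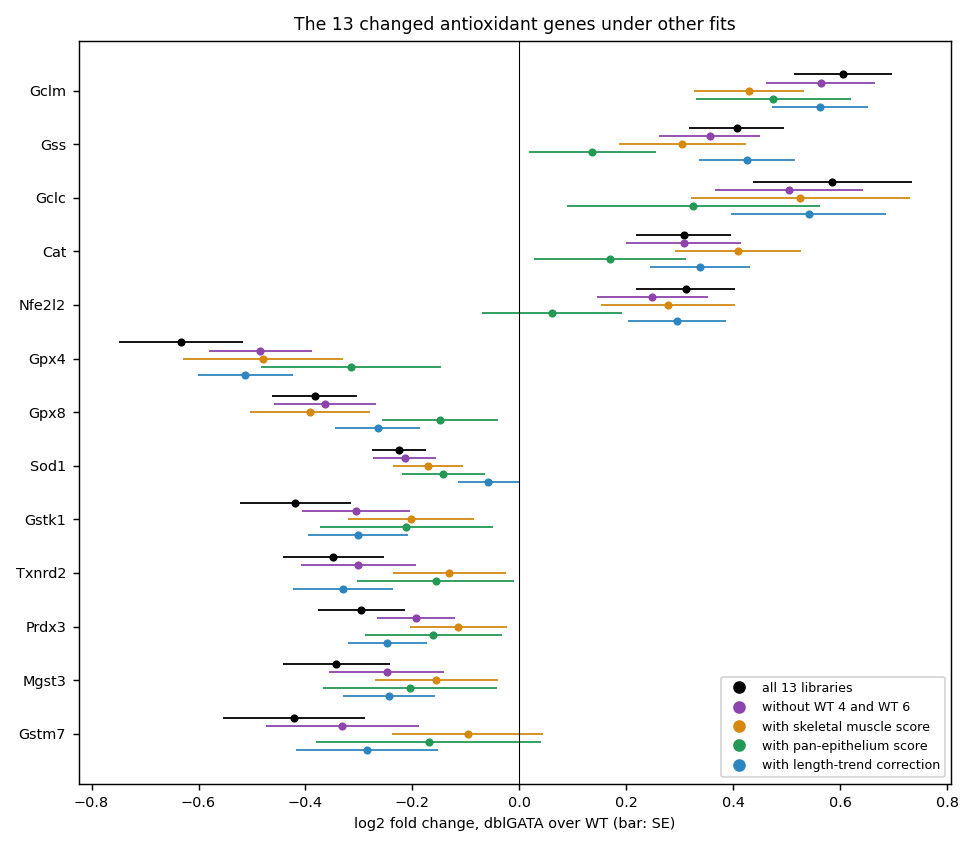
Log2 fold change of dblGATA over WT for the 13 changed members with all 13 libraries, with WT 4 and WT 6 left out, with the score of skeletal muscle or pan-epithelial markers as a covariate, and with a correction for the trend with transcript length, with bars for the SE. All points stay on their side of 0, Gclm at 0.43 to 0.60, and those with the pan-epithelial score lie closest to 0 for most of the genes that rose.

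Transcript length moved with the comparison as well. Among genes with transcripts of up to 1000 bases 0.398% rose and 15% fell, with a median log2 fold change of -0.15, and among those over 4000 bases 11.6% rose and 3.59% fell, with a median of 0.05. Of the members, 20 fall in the shortest class, with 5 that fell and none that rose, and 9 in the class over 2000 and up to 4000 bases, with 3 that rose, Gclc, Gclm and Nfe2l2, and none that fell. With the trend removed per library, 8 members passed as higher and 5 as lower, where 11.2% of all genes passed. Sod1, with 641 bases, was then at -0.06 ± 0.06 on the log2 scale (SE, adjusted p = 0.514 by edgeR), while Gpx4, with 959 bases, was at -0.51 ± 0.09 (0.0164) and Gclm at 0.56 ± 0.09 (0.0152). Gsta1, Gsta2, Gstp3 and Gpx2 passed as higher in that fit, at 0.43, 0.46, 0.51 and 0.38, and Sod2 as lower, at -0.27. Gstk1, Mgst3, Gstm7 and Nfe2l2 did not pass in it.

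**Figure D4:**
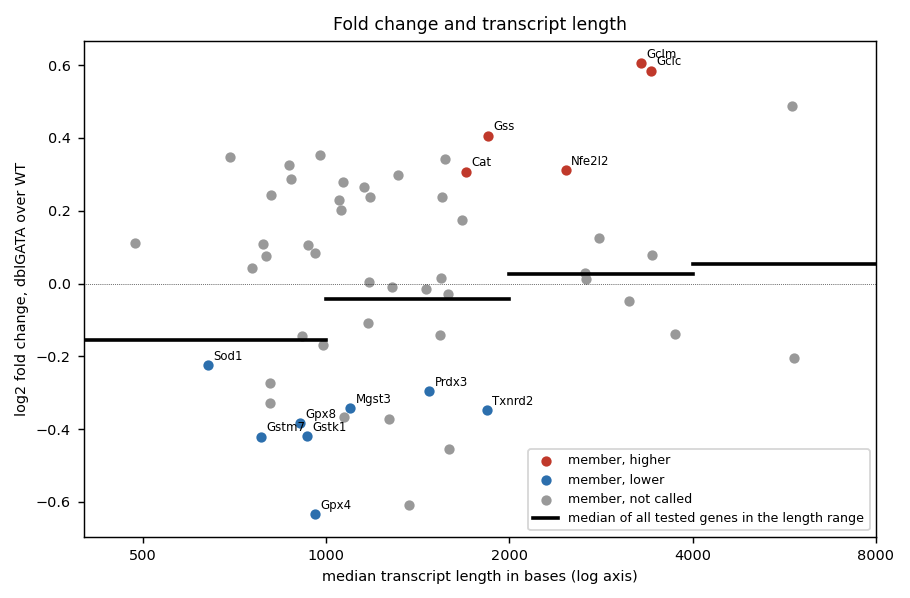
Log2 fold change of dblGATA over WT against the median length of a gene's protein-coding transcripts, in bases on a log axis, for the 56 tested members, with black lines for the median of all tested genes in 4 length classes. The medians climb from -0.15 for the shortest to 0.05 for the longest genes, and Gpx4 lies further below its class than Sod1 does.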

How the data were processed

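The authors' main table gave whole numbers for 20054 genes in 13 libraries, which from their values were taken as estimated counts rounded before they were deposited. A second deposited table held the authors' normalized signal, used in 1 alternative. The authors' p-values, log2 fold changes and test scores were copied as deposited. Their pathway table, which the file headers credit to Ingenuity Pathway Analysis, gave, per the file headers, −log10 p-values, z scores and the fraction of each pathway's genes in the authors' input. The submitters' processing notes name DESeq2 1.34.0. RNA was poly-A selected and libraries were stranded, per the labels' protocols. Aligner, counter and build are not given in the sources consulted here.

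Genes were kept by filterByExpr (minimum count 10, minimum total 15), which left 16599. Libraries were scaled by TMM and tested with robust quasi-likelihood fits of edgeR 4.0.16 under R 4.3.3, adjusted by Benjamini-Hochberg over all tested genes at 0.05, without covariates. The SE of a log2 fold change is its size divided by the root of F. Fits were tested on simulated data. A count of 3, taken as the floor, equalled 0.0306 to 0.0452 CPM and covers counting error only. No pair of libraries of a group was alike within sampling noise (lowest chi-square per degree of freedom 55.7). Transcript lengths are medians over protein-coding transcripts of GENCODE M21. Same-numbered libraries did not deviate together (correlations -0.11 to 0.06), so numbers were not treated as pairs.

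Members and lists were chosen with earlier results of these data known. Values are given for each called member and for Gclc, Gclm, Gss, Gsr, Slc7a11, Srxn1, Nqo1, Hmox1, Cat, Nfe2l2, Keap1, Txnrd1, Txn1, Gpx2, Gpx4, Prdx1, Prdx6 and Sod1, for up to 4 called genes per list and direction, and for Nnt, Slc3a2, G6pdx and Txnip. Other members are given by role or by nearness to the threshold, and Mthfd1 was named after its values were seen. Alternatives were DESeq2 1.42.0, limma 3.58.1 with voom, other scalings and filters, covariates, the replicate block and left-out libraries. The length trend, the Xist covariate and the fit without WT 3 to WT 6 were chosen after seeing the data.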

Additional observations from a re-analysis of the deposited data

Results flagged for a closer look

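In 6 of 112 groups of libraries examined (each member in each genotype) the highest library stood apart from the rest of its group by Dixon's criterion, which chance meets in about 1 in 20 groups. Gsta3 was at 29.8 CPM in dblGATA 2, where the next dblGATA library had 22.2, and Gsta5, a close relative, at 1.41 CPM in the same library, where the next had 0.902. Gstz1 was at 45.2 CPM in dblGATA 4, with 32.1 in the next dblGATA library. Without dblGATA 4 it passed as lower. Gsto1 was at 1500 CPM in WT 3, the library with airway and gland markers, with 851 CPM in the next WT library, and without WT 3 it passed as higher (edgeR adjusted p = 0.0456). Txnrd1 was at 105 CPM in WT 4, with 94.9 in the next WT library, and Hmox1 was at 93.1 CPM in the same library, with 68.8 in the next.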

How the results depend on the processing

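The number of changed members, 13 with all libraries (5 higher and 8 lower), was 23 with DESeq2 (10 higher, 13 lower), 8 with library totals alone (1 lower) and 6 with the replicate block (2 lower). The length trend gave 8 higher and 5 lower, and 3 were higher without WT 3 and WT 5 or with Xist as a covariate. It was 0 with Rn18s, the skeletal muscle markers or the pan-epithelial markers as a covariate, and in the fits that dropped WT 4 and WT 6 or WT 3 to WT 6, where 24, 10, 1, 22 and 10 members had an unadjusted p under 0.05. In these 5 fits no gene passed at all, nor with 1.5-fold or in the lists, although 3912, 1394, 588, 3542 and 2707 genes had an unadjusted p under 0.05. Genes changed numbered 3603 with DESeq2, 1150 with library totals and 880 with the replicate block, against 2239. Those with at least 1.5-fold numbered 458 with DESeq2 and 72 with the block, against 279, and list genes 40 and 12, against 24. Leaving out 1 library gave 4 (WT 6) to 21 (WT 2) changed members, 2 to 9 higher and 2 to 12 lower, 357 to 3828 genes, 45 to 664 with 1.5-fold, and 5 to 41 list genes. All 13 members kept their direction in every fit. With the pan-epithelial covariate the log2 fold changes of G6pdx, Ugt1a6a and Xdh turned to -0.025, -0.0097 and -0.021. These 3 genes were called with all 13 libraries, and turned signs of genes not called there were not counted. The fit with the pan-epithelial covariate itself called no gene. Upper-quartile scaling moved the share of higher genes among all called to 39.0%, and library totals to 79.3%, against 52.7%, with median log2 fold changes of -0.04 and 0.08. Why these values moved was not tested. Numbers of replicates carry no stated pairing, and no library correlated best with its own number. Depth limits Gstt4, Gsta5 and Gsto2, at about 1 CPM or less.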

Other observations

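A list of oxidant sources and a list of genes that make selenoproteins were counted as well. The first list also holds partners of oxidases, such as Rac2 and Duoxa1, and the growth factor receptor gene Pdgfrb. Of its 18 tested genes 3 rose in dblGATA and none fell (16.7% called, against 13.5% of all tested genes). Their log2 fold changes were above 0 in 9 and below in 9, with a median of -0.03. Cybb, the catalytic subunit of the phagocyte NADPH oxidase, was at 28.3, 35.1 and 40.5 CPM in the lowest, median and highest dblGATA library and at 16.1, 25.6 and 30.7 CPM in WT (log2 fold change 0.46 ± 0.13, SE, adjusted p = 0.0326 by edgeR). The summed macrophage markers overlapped, at 653 to 938 CPM in dblGATA and 445 to 1082 CPM in WT, and none of the 8 was called. Ero1a, which makes hydrogen peroxide while oxidising proteins in the endoplasmic reticulum, was at 44.2, 50.8 and 61.9 CPM in dblGATA and at 37.8, 40.0 and 43.6 CPM in WT, without overlap (0.32 ± 0.08, adjusted p = 0.0238), and Xdh, xanthine dehydrogenase, rose by 0.30 ± 0.09 (adjusted p = 0.0495). Of 10 genes for selenoprotein synthesis 2 rose and none fell (20% called, against 13.5% of all tested genes). Sephs1 rose by 0.21 ± 0.05, and Lrp8, a receptor for the selenium carrier selenoprotein P, by 0.45 ± 0.12 on the log2 scale (SE, adjusted p = 0.0243 and 0.03 by edgeR). The calls of Cybb, Ero1a, Sephs1 and Lrp8 were each lost without any one of dblGATA 7, WT 4 and WT 6 (edgeR adjusted p up to 0.0729 for Cybb). Cybb also lost it without dblGATA 5, Sephs1 without dblGATA 3 or dblGATA 5, and Lrp8 without dblGATA 3, dblGATA 5 or WT 3. The call of Xdh was lost in 10 of 13 fits that left out 1 library (edgeR adjusted p up to 0.101).

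Nnt, the mitochondrial transhydrogenase that makes NADPH, had a log2 fold change of -0.14 ± 0.18 (SE, adjusted p = 0.598 by edgeR). A second feature with the same symbol was at 5.51 CPM in dblGATA 2, and at 4.23, 3.79 and 7.61 CPM in WT 1, WT 2 and WT 6.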
